A study of Mus musculus with 12 samples.

Results

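The transcripts of 10 regulators of mitochondrial biogenesis were followed in the hearts of 2 mouse models that express the human NOTCH2NLC gene with 98 GGC repeats. The regulators were selected by gene symbol and made up 10 of the 25171 loci in the count table, each with 1 entry. They comprised the coactivators Ppargc1a and Ppargc1b, the estrogen-related receptors (ERRs) Esrra, Esrrb and Esrrg, the peroxisome proliferator-activated receptors (PPARs) Ppara and Ppard, the DNA-binding factors Nrf1 and Gabpa, and Tfam, which acts inside the mitochondrion. In the Myh6-tg hearts Ppargc1a was at 19.1% of its control level and Esrra at 44.8%. Ppargc1b, Ppara, Ppard, Nrf1, Gabpa and Tfam were not called in either model. In the EIIa-tg hearts Ppargc1a and Esrra were not called, and Esrrg and Esrrb were lower by 1.60-fold and 1.53-fold. Both calls were lost when certain single hearts were left out. In the Myh6-tg hearts Esrrg and Esrrb were at 29.6% and 39.5% of control, with wide intervals, and were not called.

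Mitochondrial biogenesis in the heart is run by a layered set of factors. The PGC-1 coactivators do not bind DNA themselves. They dock on ERRs and PPARs at the promoters of genes for fatty acid oxidation, the tricarboxylic acid (TCA) cycle and oxidative phosphorylation, and they also work through NRF1 and GABP, which bind the promoters of many nuclear-encoded respiratory chain subunits and of Tfam. TFAM packages mitochondrial DNA and is needed for its transcription. Cardiac muscle takes most of its energy from fatty acids, and ERRα and ERRγ are among the main partners of PGC-1α in cardiomyocytes.

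There were 4 groups of 3 hearts. Replicate 1 of each group was its only heart with Y-linked counts (4224 to 7307, at most 2 in the others). By these counts replicate 1 was male and the other hearts female. All 12 mice carried a conditional transgene at the Rosa26 locus, in which a loxP-flanked stop keeps NOTCH2NLC-(GGC)98 silent until Cre acts. EIIa-tg mice also carried EIIa-Cre (E2a in the labels), which is active in all tissues, and were examined at postnatal day 30 (P30) beside EIIa-ctl littermates without Cre. Myh6-tg and Myh6-ctl mice were labelled with the same genotype, the transgene with Myh6-creERT2, a tamoxifen-dependent Cre driven by the cardiomyocyte promoter of Myh6. From P60 they received 3 injections, of 75 mg/kg tamoxifen in Myh6-tg or of corn oil in Myh6-ctl, and hearts were taken at P90. No group received tamoxifen without the transgene, so the drug and the transgene cannot be told apart. Age, the Cre allele and the injections all differ between the models.

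The libraries held 38343106 to 50969834 counts per heart. At that depth 3 counts correspond to 0.0589 to 0.0782 CPM, a floor that covers counting error only. CPM are read counts divided by library size, here scaled by TMM (trimmed mean of M values) over the 12 hearts. All 10 regulators passed the filter on low counts in every comparison, and a gene was called where edgeR's quasi-likelihood test gave an adjusted p under 0.05 over all genes tested. Cardiomyocyte markers were abundant in all 12 hearts, with a summed level of 12702 to 56611 CPM. Of 6 skeletal muscle markers, the myosins Myh1, Myh2 and Myh4 were at 0 or below 0.3 CPM. Tnnt3, another of the 6, was higher in both transgenic groups and reached 48.7 CPM in Myh6-tg replicate 1. Esr1 ran against the label of a shared genotype. CreERT2 contains part of the estrogen receptor, and Esr1 lay at 1031 to 2331 CPM in the Myh6-ctl hearts but at 1.00 to 2.52 CPM in the Myh6-tg hearts, close to the 0.408 to 1.23 CPM of the EIIa hearts. Whether the Cre allele of both Myh6 groups is as labelled was not tested, and a difference in that allele cannot be told apart from tamoxifen or the transgene. The 13 mitochondrially encoded genes took 31.8% to 38.3% of the Myh6-ctl counts and 15.5% to 18.6% of the Myh6-tg counts. They took 34.2% to 36.7% in EIIa-ctl and 28.5% to 32.3% in EIIa-tg. On plain CPM values the median change of all genes tested was 0.38 on the log2 scale in the Myh6 comparison and 0.19 in the EIIa comparison, against 0.03 and 0.02 with TMM.

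Short elements in the promoters link some of these factors to the genes they bind. The promoter windows (250 bases before to 50 after the start site, RefSeq on GRCm38.p6) of 27025 genes were searched on both strands for the letters of 4 elements, and 9 of the 10 regulators had a window. The ERR element TCAAGGTCA stood in 0.466% of genes, the NRF1 element GCGCATGCG in 1.95% and the GABP element CCGGAAGT in 4.31%. The NRF1 element overlaps itself on the opposite strand where 1 base more matches. The PPAR element AGGTCANAGGTCA was present in 13 genes, which is 0.0481%. Among the regulators, Tfam held a GABP element and Ppara an NRF1 element. No other regulator with a window held the exact letters of any of the 4. The windows below are read 5′ to 3′ on the gene's strand with the element in capitals, reversed and complemented where it lies on the other strand. Tfam and Ppara are shown as regulators that may themselves be bound, Polg and Cpt2 as genes named in the results below, and Cycs (cytochrome c) and Sdhd (a complex II subunit) as respiratory genes, picked for their elements after their values were seen.
Tfam, GABP element, chr10:71238073-71238102, minus strand: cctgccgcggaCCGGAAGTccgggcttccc
Polg, GABP element, chr7:79466293-79466322, minus strand: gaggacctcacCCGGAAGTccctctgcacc
Cpt2, GABP element, chr4:107923584-107923613, minus strand: cctatcggtgcCCGGAAGTgcccctgtggg
Ppara, NRF1 element, chr15:85735735-85735763, plus strand: gggctcggtgGCGCATGCGcgcggactag
Cycs, NRF1 element, chr6:50566612-50566640, minus strand: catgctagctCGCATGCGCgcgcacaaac
Sdhd, ERR element, chr9:50603800-50603823, minus strand: ggttgtagagTGACCTTGAgccct
The Tfam element begins 47 bases upstream of the start site and the Polg element 38 bases upstream.

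Ppargc1a encodes PGC-1α and lies on the minus strand of chr5:51454250-51567726 (GRCm38). Its levels in the Myh6-ctl hearts were 66.1, 96.5 and 143 CPM, and in the Myh6-tg hearts 26.4, 17.4 and 14.6 CPM. All 3 Myh6-tg hearts lay below all 3 Myh6-ctl hearts, and the lowest Myh6-ctl heart was still above the highest Myh6-tg heart. Ppargc1a fell by 2.39 on the log2 scale (SE 0.34, 95% interval -3.19 to -1.60), a 5.24-fold lower level (edgeR, adjusted p = 0.00588). It was the only regulator to pass the stricter rule of an adjusted p under 0.01 with at least a log2 change of 1, which 2.05% of all genes passed downwards. In the EIIa hearts the levels were 63.0, 41.8 and 54.8 CPM in controls and 57.5, 43.2 and 47.8 CPM in EIIa-tg, so the groups overlapped. The EIIa difference was -0.11 (SE 0.16, 95% interval -0.48 to 0.26, adjusted p = 0.673), and on the scale of FPKM (read fragments per kilobase of transcript and library size, with limma) it was 0.081.

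Ppargc1b encodes PGC-1β, the second coactivator of the family, and was expressed at a lower level. It was at 5.79, 5.72 and 5.67 CPM in Myh6-ctl and at 4.59, 1.48 and 1.97 CPM in Myh6-tg. The groups did not overlap, but the first Myh6-tg heart was close to the controls and the difference of -1.10 was not called (SE 0.43, edgeR, adjusted p = 0.117). The EIIa-ctl hearts were at 6.72, 2.61 and 7.80 CPM and the EIIa-tg hearts at 4.46, 4.19 and 3.79 CPM, an overlapping pair of groups (-0.46, adjusted p = 0.393).

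**Figure D1:**
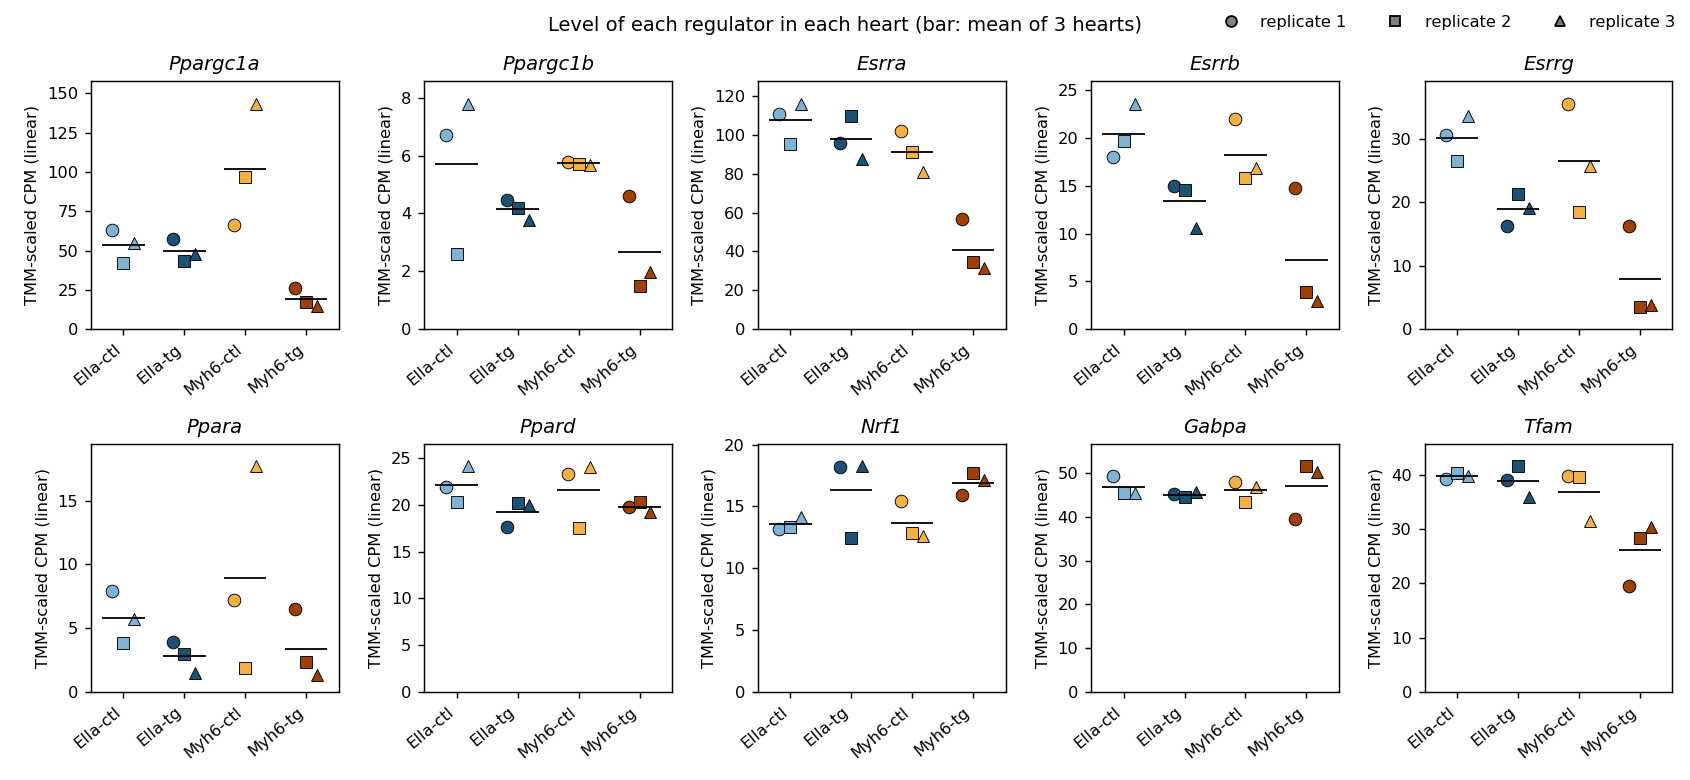
Level of each of the 10 regulators in each heart (points, shaped by replicate, CPM on TMM-scaled library sizes, 1 panel per gene with its own linear axis from 0) with the mean of the 3 hearts of each group (horizontal lines). Ppargc1a is lower in all 3 Myh6-tg hearts than in all 3 Myh6-ctl hearts, while Gabpa and Ppard overlap between those groups.

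Esrra encodes ERRα and lies on the minus strand of chr19:6910977-6921813. It was at 102, 91.3 and 80.6 CPM in Myh6-ctl and at 56.5, 34.7 and 31.6 CPM in Myh6-tg, with no overlap. Esrra fell by 1.16 on the log2 scale (SE 0.25, 95% interval -1.74 to -0.58, edgeR, adjusted p = 0.0196). The call was lost when any of 4 hearts was left out, with an adjusted p of 0.0756 without Myh6-ctl replicate 1, 0.0532 without Myh6-ctl replicate 2, 0.0798 without Myh6-tg replicate 2 and 0.0746 without Myh6-tg replicate 3. In the EIIa hearts Esrra was at 111, 95.4 and 116 CPM in controls and at 95.9, 109.8 and 87.5 CPM in EIIa-tg (-0.14, SE 0.12, adjusted p = 0.452), and the difference was 0.050 on the FPKM scale.

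Esrrg encodes ERRγ (plus strand, chr1:187608791-188214885) and Esrrb encodes ERRβ (plus strand, chr12:86361117-86521628). Esrrg was at 30.6, 26.4 and 33.6 CPM in EIIa-ctl and at 16.3, 21.3 and 19.2 CPM in EIIa-tg. The groups did not overlap, and Esrrg fell by 0.68 on the log2 scale (SE 0.14, 95% interval -0.999 to -0.36, edgeR, adjusted p = 0.0227). Esrrb was at 18.04, 19.6 and 23.6 CPM in EIIa-ctl and at 15.0, 14.6 and 10.6 CPM in EIIa-tg. It too did not overlap and fell by 0.61 (SE 0.17, 95% interval -0.99 to -0.23, edgeR, adjusted p = 0.0431). Neither call held with each heart left out in turn. Esrrg was lost without EIIa-ctl replicate 1 (adjusted p = 0.0896), EIIa-ctl replicate 3 (0.0939), EIIa-tg replicate 1 (0.0738) or EIIa-tg replicate 3 (0.0789). Esrrb was lost without any heart but EIIa-tg replicate 2, at an adjusted p of 0.0724 to 0.146.

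In the Myh6 model Esrrg was at 35.6, 18.5 and 25.7 CPM in controls and at 16.3, 3.47 and 3.88 CPM in Myh6-tg. Esrrb was at 21.9, 15.8 and 16.9 CPM in controls and at 14.8, 3.86 and 2.95 CPM in Myh6-tg. In both genes Myh6-tg replicate 1 stayed just below the lowest control heart while the other 2 hearts lay well below every control. The differences of -1.75 for Esrrg (SE 0.60, edgeR, adjusted p = 0.0803) and -1.34 for Esrrb (SE 0.57, adjusted p = 0.141) were not called. Without Myh6-tg replicate 1 they were -2.86 (adjusted p = 0.00159) and -2.42 (adjusted p = 0.00127), and Ppargc1b was then at -1.73 (adjusted p = 0.00603). The heart left out was the only male of its group, while the male Myh6-ctl replicate 1 stayed in that fit. Its deviation from the other Myh6-tg hearts cannot be told apart from sex. Same-numbered Myh6 hearts deviated together, and with the replicate number as a block the called differences were -2.08 for Esrrg (adjusted p = 0.0103) and -1.70 for Esrrb (adjusted p = 0.0282).

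Ppara encodes PPARα, the fatty acid receptor that raises fatty acid oxidation genes, and was among the most variable of the regulators. Myh6-ctl hearts were at 7.17, 1.84 and 17.7 CPM and Myh6-tg hearts at 6.47, 2.34 and 1.34 CPM, so the groups overlapped (-1.40, SE 0.82, 95% interval -3.31 to 0.51, edgeR, adjusted p = 0.274). EIIa-ctl hearts were at 7.88, 3.80 and 5.68 CPM and EIIa-tg hearts at 3.87, 2.98 and 1.47 CPM (-1.07, SE 0.39, adjusted p = 0.0888). Ppard encodes PPARδ, which acts on many of the same genes. It ranged from 17.5 to 24.2 CPM over the 12 hearts. Its difference was -0.13 in Myh6 (SE 0.18, adjusted p = 0.662), which was 0.24 on the FPKM scale, and -0.20 in EIIa (SE 0.11, adjusted p = 0.246), which was 0.0021 on the FPKM scale.

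Nrf1 and Gabpa, which encode the nuclear respiratory factor NRF1 and the DNA-binding subunit of GABP, were not called in either comparison. Nrf1 was at 15.4, 12.8 and 12.6 CPM in Myh6-ctl and at 15.9, 17.7 and 17.1 CPM in Myh6-tg. Every Myh6-tg heart was above every control, as for 20.6% of all genes, and the difference of 0.31 was not called (SE 0.17, 95% interval -0.09 to 0.71, edgeR, adjusted p = 0.244). With limma on the FPKM scale it was 0.55 (adjusted p = 0.0626). In EIIa the Nrf1 difference was 0.26 (adjusted p = 0.271), and 1 of 17 alternative settings called it higher. Gabpa ranged from 39.6 to 51.6 CPM over all hearts, with 95% intervals of -0.36 to 0.42 in Myh6 and -0.25 to 0.14 in EIIa around differences of 0.03 and -0.06. With limma on the FPKM scale the EIIa value turned to 0.12 (adjusted p = 0.372) and the Myh6 value was 0.37 (adjusted p = 0.207).

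Tfam was at 39.7, 39.6 and 31.4 CPM in Myh6-ctl and at 19.6, 28.4 and 30.4 CPM in Myh6-tg. The groups did not overlap, by a narrow gap, and the difference of -0.50 was not called (SE 0.22, 95% interval -0.996 to 0.0029, edgeR, adjusted p = 0.149). On the FPKM scale it was -0.08. The heart with the lowest Tfam, Myh6-tg replicate 1, was the one with the highest Ppargc1a, Ppargc1b, Esrra, Esrrb and Esrrg of its group. In EIIa, Tfam stayed between 35.9 and 41.6 CPM in all 6 hearts (-0.04, 95% interval -0.26 to 0.18, adjusted p = 0.805, and 0.13 on the FPKM scale).

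Over the 10 regulators, 2 were called lower in the Myh6 model, where 9.38% of all genes were lower and 8.96% higher, and 2 were called lower in the EIIa model, where 8.3% were lower and 8.65% higher. No regulator was called higher in either main edgeR fit, and none that was higher had an unadjusted p under 0.05 there. Of 17 alternative settings in EIIa, 1 called Nrf1 higher, 1 called Ppara lower and 1 called Ppargc1b lower. With the replicate block 4 were lower in Myh6 (Ppargc1a, Esrra, Esrrb and Esrrg), where 11.2% of all genes were. The groups did not overlap, with the transgenic hearts lower, for 6 regulators in Myh6 (19.6% of all genes) and for 3 in EIIa, Esrrb, Esrrg and Ppard (20.8% of all genes).

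**Figure D2:**
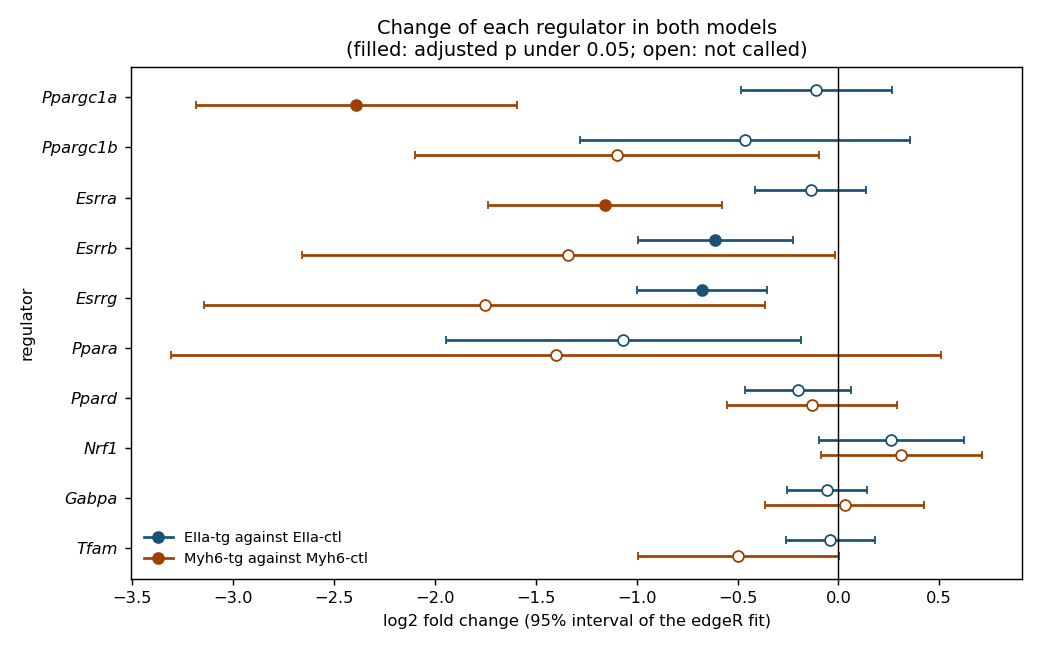
Log2 fold change of each of the 10 regulators in EIIa-tg and Myh6-tg against their own controls (points) with 95% intervals from edgeR (lines), filled where the adjusted p was under 0.05. The Myh6 value of Ppargc1a lies at -2.39 and its EIIa value at -0.11.

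Whether a regulator responded differently in the 2 models was tested in a fit over the 12 hearts. Ppargc1a was the 1 regulator that did, with a Myh6 minus EIIa difference of -2.28 (SE 0.40, 95% interval -3.17 to -1.40, edgeR, adjusted p = 0.0112), among 2.27% of all genes called in that direction and 1.65% in the other. Esrra differed by -1.02 (95% interval -1.65 to -0.40, adjusted p = 0.0724) and was not called. For Esrrg and Esrrb the intervals were wide, -2.54 to 0.38 and -2.15 to 0.68, so a model-specific response could be neither shown nor bounded closely. For Gabpa the interval was -0.29 to 0.46.

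The controls of the 2 models differ in age, Cre allele and oil injection. None of the 10 regulators was called between them, where 5 genes or 0.0334% of all genes were. Ppargc1a was higher in all 3 Myh6-ctl hearts than in all 3 EIIa-ctl hearts, as for 8.73% of all genes, at 1.92-fold (log2 0.94, SE 0.27, edgeR, adjusted p = 0.230). Its unadjusted p was 0.00732, the only one under 0.05 among the regulators. DESeq2 called it, at an adjusted p of 0.0190, and over the other alternatives the adjusted p was 0.0660 to 0.670. The Myh6-ctl level, against which the Myh6 fall of Ppargc1a is measured, was thus the highest of the 4 groups and the most spread (102 ± 38.9 CPM, SD, n = 3, against 53.2 ± 10.7 CPM in EIIa-ctl). The Myh6-tg hearts, at 19.5 ± 6.17 CPM, were also below every EIIa heart.

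Levels between genes were compared per transcript length, as FPKM. Esrra had the highest level in all 4 groups, with 42.4 and 43.9 FPKM in the EIIa controls and transgenics and 36.2 and 21.4 FPKM in their Myh6 counterparts, and its range overlapped no other regulator in any of them. Ppargc1a stood 4th in EIIa-ctl and EIIa-tg, 2nd in Myh6-ctl (14.7 ± 7.65 FPKM) and 6th in Myh6-tg (3.48 ± 0.781 FPKM). Ppara and Ppargc1b were the lowest pair in every group, between 0.804 and 2.56 FPKM, and they overlapped each other except in EIIa-tg. In Myh6-ctl Ppargc1a overlapped its lower neighbour Gabpa, whereas in Myh6-tg the upper neighbour Nrf1 was above it without overlap. The order depended on how length was counted. With counts divided by the annotated exonic length, Esrra was still highest in all 4 groups, but only 4, 6, 2 and 5 of the 10 regulators kept their rank in EIIa-ctl, EIIa-tg, Myh6-ctl and Myh6-tg. Nrf1 was then the lowest in both control groups, and in Myh6-tg Ppargc1a stood 4th, above Nrf1 at 6th.

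Within the ERR family, Esrra made up 81.8% ± 0.669 of the summed FPKM in EIIa-ctl and 86.0% ± 0.325 in EIIa-tg (SD, n = 3, exact two-sided permutation test, p = 0.1, the smallest that 3 against 3 allows). In Myh6 it was 81.2% ± 2.79 and 86.9% ± 6.68 (exact permutation p = 0.3). The summed FPKM of the 3 ERRs was 39.0 to 49.4 in Myh6-ctl and 20.0 to 35.1 in Myh6-tg, and 48.6 to 55.7 and 48.8 to 55.4 in EIIa-ctl and EIIa-tg. Ppargc1a made up 90.3% ± 3.51 of the PGC-1 sum in Myh6-ctl and 81.4% ± 5.35 in Myh6-tg (exact permutation p = 0.2). The Esrra share of every EIIa-tg heart, 85.6% to 86.2%, was above that of every EIIa-ctl heart, 81.2% to 82.5%. Over the 6 such shares tested the adjusted p was 0.4 to 0.6, in a design that cannot reach 0.05.

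**Figure D3:**
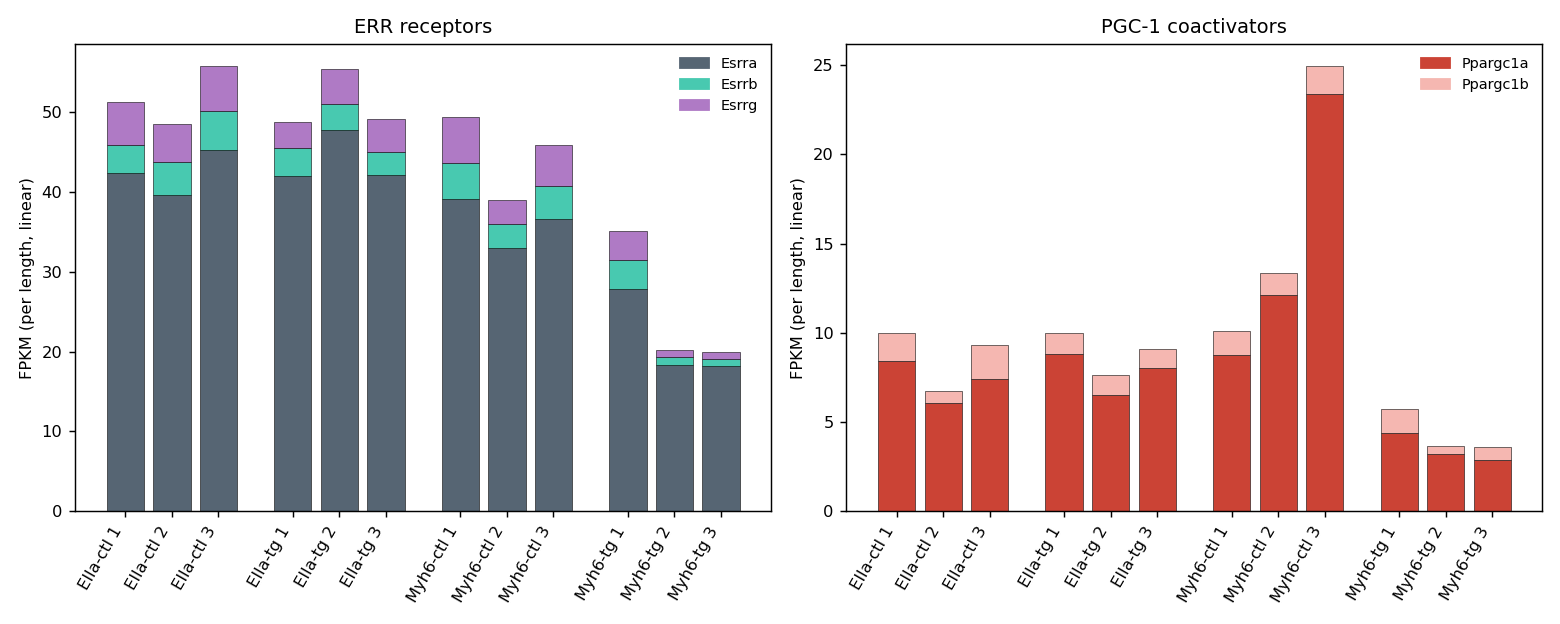
FPKM of the ERRs (left) and of the PGC-1 coactivators (right), stacked by gene in each of the 12 hearts (1 bar per heart, linear axis from 0). The ERR sum is lower in all 3 Myh6-tg hearts than in all 3 Myh6-ctl hearts, and Esrra is the largest part of it in every heart.

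The genes on which these regulators act were read from lists. Of 19 fatty acid oxidation enzymes 15 were lower in Myh6-tg, which is 78.9%, and the median change was -1.60 against 0.03 over all genes. They included Cpt2, the inner-membrane carnitine palmitoyltransferase (163 to 39.8 CPM between group means, log2 -2.03, adjusted p = 0.00306), Eci1, an enoyl-CoA isomerase (-2.01, adjusted p = 0.00354), Acaa2, the last step of each oxidation cycle (-1.96, adjusted p = 0.00572), and Etfdh, which passes the electrons to ubiquinone (-1.60, adjusted p = 0.00887). In EIIa-tg 5 of the 19 were lower (median -0.32 against 0.02), Cpt2 and Etfdh among them (-0.63, adjusted p = 0.0337, and -0.57, adjusted p = 0.0271). These counts, and the TCA and nuclear respiratory chain counts below, read against 9.38% and 8.3% of all genes.

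Of 18 TCA cycle enzymes 13 were lower in Myh6-tg (median -1.23), among them Suclg2, a succinyl-CoA ligase subunit (-1.74, adjusted p = 0.00563), Fh1, fumarase (-1.31, adjusted p = 0.00917), and Idh3b, an isocitrate dehydrogenase subunit (-1.82, adjusted p = 0.0146). In EIIa-tg 4 were lower (median -0.46), with Dlst, a subunit of the oxoglutarate dehydrogenase complex, at -0.83 (adjusted p = 0.0261). Of 78 nuclear-encoded subunits of the respiratory chain and ATP synthase 50 were lower in Myh6-tg and 12 in EIIa-tg (medians -1.12 and -0.31). Cox7a1, the heart and muscle form of a cytochrome oxidase subunit, had the largest change of the list, from 58.6 to 6.94 CPM in Myh6 (-3.08, adjusted p = 0.00184) and from 69.0 to 38.5 CPM in EIIa (-0.84, adjusted p = 0.0318). Cox8b, another muscle form, fell by 2.27 in Myh6 (adjusted p = 0.00496), and the complex I subunits Ndufs4 and Ndufa12 by 1.39 (adjusted p = 0.00924) and 1.19 (adjusted p = 0.0108). The TCA list shares 4 complex II genes with the respiratory chain list.

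Of the 13 mitochondrially encoded subunits, which TFAM helps to transcribe, 9 were lower in Myh6-tg and 1 in EIIa-tg (medians -1.35 and -0.41). Of all genes 9.38% and 8.3% were lower, so the EIIa-tg share of 7.69% was near that of all genes. The lower subunits included mt-Nd3 (-1.88, adjusted p = 0.00522), mt-Nd4l (-1.53, adjusted p = 0.0149) and mt-Co3 (-1.76, adjusted p = 0.0166) in Myh6-tg, and mt-Nd4l (-0.64, adjusted p = 0.0384) in EIIa-tg. Of 16 factors of mitochondrial DNA transcription and replication other than Tfam, 6 were lower in Myh6-tg and 3 in EIIa-tg (medians -0.62 and -0.29). Mgme1, a mitochondrial exonuclease (-1.48, adjusted p = 0.00532), Polg, the DNA polymerase (-0.94, adjusted p = 0.0111), and Mterf2, a termination factor family member (-1.74, adjusted p = 0.0159), fell in Myh6-tg. Tfb2m, the transcription factor that opens the promoter beside TFAM, fell in both (-0.84, adjusted p = 0.0206, and -0.66, adjusted p = 0.0291).

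Of 26 PPAR targets, which share 9 genes with the oxidation list, 11 were lower in Myh6-tg (median -0.79), including Acsl1, which activates fatty acids (-1.85, adjusted p = 0.00423), and Hadha, the trifunctional protein subunit (-1.56, adjusted p = 0.00577). Of all genes 9.38% were lower in Myh6-tg. In EIIa-tg 2 were lower and 3 higher (median 0.05), counts near the shares of all genes (8.3% lower and 8.65% higher). Acsl1 fell there by 0.59 (adjusted p = 0.0318), and Angptl4, an inhibitor of lipoprotein lipase, rose from 8.57 to 53.6 CPM (2.63, adjusted p = 0.0201). In Myh6-tg Angptl4 was at 2.27 (adjusted p = 0.171).

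The list counts depended on single hearts, except for fatty acid oxidation in Myh6, which held 11 to 16 of 19 with any 1 heart left out. In Myh6 the TCA count was 2 to 5, the nuclear respiratory chain count 7 to 17 and the mitochondrially encoded count 1 or 2 without Myh6-ctl replicate 1, Myh6-ctl replicate 2, Myh6-tg replicate 2 or Myh6-tg replicate 3. The mitochondrial DNA count was 1 or 2 without Myh6-ctl replicate 1, Myh6-tg replicate 2 or Myh6-tg replicate 3. The PPAR target count was 7 without Myh6-tg replicate 2. In EIIa all 6 counts were 0 without EIIa-ctl replicate 1, EIIa-ctl replicate 3, EIIa-tg replicate 1 or EIIa-tg replicate 3, and at most 3 without EIIa-ctl replicate 2, while without EIIa-tg replicate 2 the TCA count was 15 and the nuclear respiratory chain count 35. The EIIa counts also depended on the test: all 6 were 0 with the replicate block and in one fit of the 12 hearts, whereas DESeq2 called 14 TCA enzymes, 32 nuclear respiratory chain subunits and 12 mitochondrially encoded subunits. In Myh6 the mitochondrially encoded count was 2 with the bias-adjusted test and 13 with DESeq2.

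**Figure D4:**
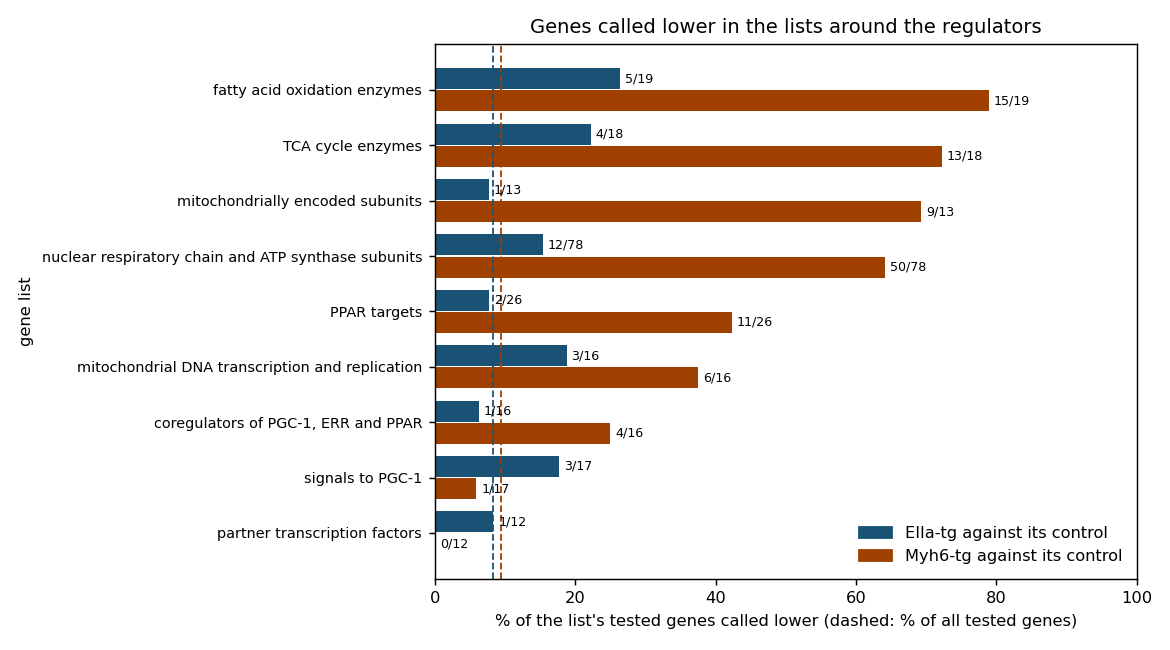
Share of each list's tested genes called lower (bars, percent from 0) in Myh6-tg and EIIa-tg, with the share of all genes called lower in each comparison as a dashed line in the same colour and the counts beside the bars. For fatty acid oxidation enzymes the shares are 78.9% in Myh6-tg and 26.3% in EIIa-tg.

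The difference between the models was called lower for 10 of the 19 fatty acid oxidation enzymes and 9 of the 26 PPAR targets (medians -1.29 and -1.04). It was called lower for 1 of 18 TCA enzymes, 2 of 78 nuclear respiratory chain subunits, 1 of 13 mitochondrially encoded subunits and 1 of 16 mitochondrial DNA factors (2.27% of all genes). Few calls do not show an equal response. The medians of the TCA, nuclear respiratory chain and mitochondrially encoded lists were -0.79, -0.78 and -0.94, against -0.04 over all genes. In these 3 lists 18 of 18, 76 of 78 and 13 of 13 genes were below 0, against 52.9% of all genes. The genes of a list were measured in the same hearts, so they are not separate observations.

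Among 16 coregulators that help or oppose the PGC-1, ERR and PPAR factors, 4 were lower in Myh6-tg, against 9.38% of all genes, and 1 lower and 1 higher in EIIa-tg, which is below the 8.3% and 8.65% of all genes. Perm1, a muscle regulator induced by PGC-1 and ERRs, fell from 217 to 36.6 CPM in Myh6 (-2.57, SE 0.29, adjusted p = 0.00311) and from 228 to 139 CPM in EIIa (-0.72, SE 0.17, adjusted p = 0.0308). The difference of -1.86 between the models was called (adjusted p = 0.0134). Lpin1, which cooperates with PGC-1α and PPARα, fell from 129 to 45.7 CPM in Myh6 (adjusted p = 0.00586), and Med1, the Mediator subunit that contacts nuclear receptors, by 0.63 (adjusted p = 0.0298).

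Of 12 partner transcription factors 1 was called in each comparison, a share near that of all genes (8.3% lower in EIIa-tg, 8.96% higher in Myh6-tg). Nr1d1, the repressor REV-ERBα, rose by 0.89 in Myh6-tg (adjusted p = 0.0393). Rxrg, one of the retinoid X receptors with which PPARs pair, fell by 0.94 in EIIa-tg (adjusted p = 0.0210) and was at -2.20 in Myh6-tg (adjusted p = 0.0718), a call with the replicate block (adjusted p = 0.0107). Tfeb was at -0.55 in Myh6-tg (adjusted p = 0.103). Of 17 signalling genes upstream of PGC-1, Prkab2, a subunit of the energy sensor AMPK, rose from 53.2 to 298 CPM in Myh6-tg (2.49, adjusted p = 0.00517), Mef2c fell by 0.70 (adjusted p = 0.0462), and Mef2d was at 0.52 (adjusted p = 0.0601). In EIIa-tg 3 of the 17 were lower (8.3% of all genes), Akt1 with the smallest p (-0.60, adjusted p = 0.0229). The lower calls of coregulators, partner factors and signalling genes in EIIa-tg, Perm1, Rxrg and Akt1 included, were lost without EIIa-ctl replicate 1, EIIa-ctl replicate 3, EIIa-tg replicate 1 or EIIa-tg replicate 3, and with the replicate block. In Myh6-tg the call of Mef2c was lost with any heart left out but Myh6-tg replicate 1, and 2 coregulators were lower without Myh6-ctl replicate 1, Myh6-tg replicate 2 or Myh6-tg replicate 3.

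The relation between the regulators and the metabolic genes was set out heart by heart, since 3 hearts a group allow no correlation within a group and a pooled one would restate the group difference. Against the mean of its controls, Ppargc1a was at -1.88, -2.48 and -2.73 on the log2 scale in Myh6-tg replicates 1, 2 and 3. The mean of the fatty acid oxidation enzymes in the same hearts was at -1.16, -1.38 and -1.63, and that of the mitochondrially encoded subunits at -1.27, -1.33 and -1.68. The TCA mean was at -0.74, -1.44 and -1.73, and the nuclear respiratory chain mean at -0.81, -1.07 and -1.47. Each of the 3 hearts was thus low in all of them, and the heart with the lowest Ppargc1a was the lowest in these 4 lists. The PPAR targets differed, with means of -1.10, -0.57 and -0.73, lowest in the heart with the highest Ppargc1a. Esrra followed the same sequence of hearts, at -0.69, -1.39 and -1.52. Tfam had the opposite sequence, at -0.90, -0.37 and -0.27.

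In the Myh6-ctl hearts the highest Ppargc1a did not go with the highest metabolic genes. Replicate 3 had 143 CPM of Ppargc1a but the lowest mean of the fatty acid oxidation, TCA, nuclear respiratory chain and mitochondrially encoded lists of its group (8.06 against 8.56 and 8.49 log2 CPM for fatty acid oxidation). In EIIa-tg Ppargc1a was at 0.13, -0.28 and -0.14 against its control mean in replicates 1, 2 and 3. The TCA mean was at -0.44, -0.23 and -0.70 and the mitochondrially encoded mean at -0.37, -0.30 and -0.61. The fatty acid oxidation mean was at -0.07, -0.26 and -0.43 and the nuclear respiratory chain mean at -0.24, -0.20 and -0.55. Replicate 1 was highest in Ppargc1a and the fatty acid oxidation mean, whereas their lowest hearts differed. In EIIa-ctl the highest and lowest hearts of Ppargc1a were also those of the fatty acid oxidation and mitochondrially encoded means. The TCA mean shared only the lowest heart and the nuclear respiratory chain mean neither.

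**Figure D5:**
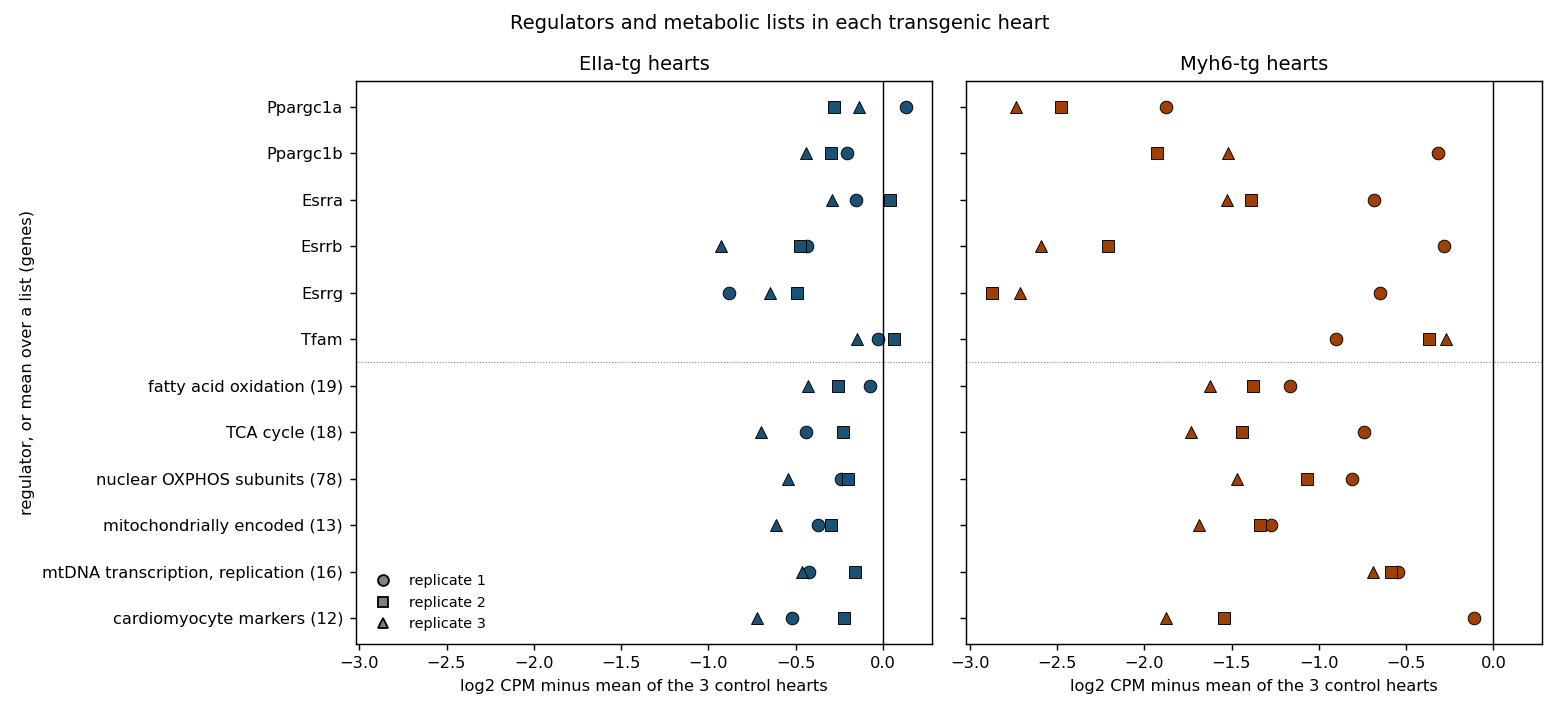
Each transgenic heart minus the mean of its controls (log2 CPM; 0 is the control mean) for 6 regulators and the means of 5 metabolic and mitochondrial lists and of cardiomyocyte markers, with 1 point per heart shaped by replicate. In Myh6-tg replicate 1 the cardiomyocyte marker mean lies at -0.11 and Ppargc1a at -1.88. That mean averages 5 markers below all Myh6-ctl hearts and 6 above all of them.

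Markers of cell types moved in the same hearts. In bulk tissue, fewer cardiomyocytes and less RNA per cardiomyocyte cannot be told apart. The mean of 12 cardiomyocyte markers was at -0.11, -1.54 and -1.88 against control on the log2 scale in Myh6-tg replicates 1, 2 and 3, and 5 of the 12 were called lower, Myh6 itself at -2.60 (adjusted p = 0.0208). Their summed level was 37594 to 50119 CPM in Myh6-ctl and 12702 to 41491 CPM in Myh6-tg. The near-control mean of replicate 1 averaged markers that lay on opposite sides: 5 of the 12 lay below all Myh6-ctl hearts, Myh6 at 2904 against 7205 to 10512 CPM, and 6 lay above all of them, Tnnt2 at 9675 against 3191 to 4769 CPM. In this heart Ppargc1a, the fatty acid oxidation mean and the mitochondrially encoded mean were at -1.88, -1.16 and -1.27, while Esrrb, Esrrg and Ppargc1b were at -0.28, -0.65 and -0.32. Set relative to the cardiomyocyte marker mean of each heart, a scale chosen after the data were seen, Ppargc1a was at -1.18 in Myh6-tg with no overlap between groups, whereas Esrra was at -0.02, the fatty acid oxidation mean at -0.21, the TCA mean at -0.13 and the mitochondrially encoded mean at -0.25, all overlapping. Esrrg and Esrrb were at -0.90 and -0.52 in Myh6-tg and at -0.19 and -0.12 in EIIa-tg, with overlap in both models. In EIIa-tg Esrra, Ppard, Nrf1, Gabpa and Tfam were at 0.35, 0.29, 0.74, 0.44 and 0.45, all higher with no overlap. The coregulator and partner factor means were higher there too, at 0.43 and 0.53. The marker mean itself lay below control in these hearts (-0.52, -0.22 and -0.72), which raises every value on this scale. Nrf1 in Myh6-tg was at 1.49, higher with no overlap. The share of all genes without overlap was not computed on this scale.

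Of 7 fibroblast markers 3 were higher in Myh6-tg (summed level 1911 to 2405 CPM in Myh6-ctl, 2568 to 6098 CPM in Myh6-tg) and 2 in EIIa-tg (1426 to 2065 and 2625 to 3797 CPM). In EIIa-tg 5 of 6 macrophage and leukocyte markers tested were higher (302 to 474 and 674 to 866 CPM), 3 of 6 endothelial markers were lower (933 to 1068 and 712 to 800 CPM), and 2 of 12 cardiomyocyte markers were lower and 1, Myh7, higher (46793 to 56611 and 25756 to 41529 CPM). In Myh6-tg none of 7 macrophage and leukocyte and 6 endothelial markers was called. Of 5 smooth muscle and pericyte markers, Myh11 was lower in Myh6-tg (-1.08, adjusted p = 0.0452). Of 6 skeletal muscle markers, Tnnt3, a troponin T, rose in both models, from 0.114 to 0.217 CPM in EIIa-ctl to 1.63 to 4.54 CPM in EIIa-tg, and from 0.249 to 1.32 CPM in Myh6-ctl to 5.07 to 48.7 CPM in Myh6-tg (adjusted p = 0.0135 and 0.0220). The other 5 were at most 0.625 CPM in every heart. No adipocyte marker was called. Their mean was above control by 0.76, 1.84 and 1.89 on the log2 scale in the EIIa-tg hearts, with Adipoq and Plin1 below 1 CPM and Ucp1 at 0 in all 3. Cfd was at most 1.89 CPM there, so that mean rests largely on low counts. In the Myh6-tg hearts the adipocyte marker mean was at -2.85, -0.91 and 0.33. A link of these markers to Angptl4 was not tested. The part of these cell type shifts in the changes of the regulators was not tested.

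The elements in the promoters were compared with the changes as a description. The GABP element stood in 35.7% of the 14 mitochondrial DNA factors with a window (Tefm, Mterf1a, Mterf1b, Polg and Twnk) against 4.31% of all genes, and the NRF1 element in 13.8% of 65 nuclear respiratory chain genes against 1.95%. Mterf1a and Mterf1b have identical letters in their windows, so they are not separate instances of the GABP element. The ERR element stood in 2 of those 65, Sdhd and Atp5g3. It stood in 0 of 16 fatty acid oxidation enzymes with a window. The PPAR element stood in 0 of those 16 and in 0 of 21 PPAR targets. Genes with the NRF1 element had a median Myh6 change of 0.01 (423 genes) and genes with the GABP element of 0.09 (918 genes), beside 0.03 for the genes without either element in turn. Of genes with the NRF1 element 8.04% were lower in Myh6-tg, against 9.35% of those without it. Of genes with the GABP element 6.64% were lower, against 9.54%. The 34 genes with the ERR element had a median of -0.15, and 5 of them (14.7%) were lower, against 9.29% of those without it. In EIIa their median was 0.18, with 4 lower and 4 higher. Of the genes printed above, Cpt2 and Polg fell as given, Cycs fell by 1.17 (adjusted p = 0.0312) and Sdhd by 1.13 (adjusted p = 0.0332). Tfam and Ppara were not called, and neither was Atp5g3 (-1.03, adjusted p = 0.0639). The presence of these letters was not tested as a cause.

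The genes whose log2 CPM ran closest to the called regulators over the 12 hearts were found among 15928 genes. For Ppargc1a they were Ccbe1 (Pearson r = 0.95), Pde7a (0.94) and Rasgrp2 (0.94), which were at -2.09, -1.23 and -1.21 in Myh6-tg. For Esrra they were an unannotated locus, NewGene_1018 (0.99), Car14, a membrane carbonic anhydrase (0.99), and Pdk2, a pyruvate dehydrogenase kinase (0.99). The 12 points share their 4 groups, so these coefficients largely describe the group means.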

How the data were processed

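Heart RNA was sequenced as paired-end 150 bp libraries (3 hearts per group, 12 in all). The tissue label is heart, but the extraction protocol in the labels names brain. The genotype labels of EIIa-tg replicates 2 and 3 begin with e3a and e4a, and their titles were used. The authors aligned reads with HISAT2 (2.0.4 in the submitters' processing notes) and quantified genes with StringTie (2.2.1). The notes name mm10 and GRCm39 and the study's methods GRCm38. The deposited values were read counts per gene and, in a second table, FPKM (fragments per kilobase, scaled to library size) per gene. The FPKM values served to compare genes and for alternative tests on log2(FPKM + 1) and log2(FPKM + 0.1). Of 25171 loci, 3135 named NewGene took 2.09% to 4.35% of counts. No per-sample column was left out.

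Counts were filtered with filterByExpr, scaled by TMM and tested with the quasi-likelihood test of edgeR 4.0.16 (R 4.3.3) for each model against its own controls. The difference between models used the 12 hearts. P-values were adjusted by Benjamini-Hochberg over all genes tested. Shares within families were tested by exact permutation. DESeq2 1.42.0, limma 3.58.1, other scalings and filters, a replicate block and leaving out each heart were alternatives. The scripts were checked on simulated data. Nothing states that the 3 hearts of a group came from separate litters or extractions, so p-values measure the spread between these samples.

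Same-numbered Myh6 hearts deviated together (correlation of deviations 0.285, 0.184 and 0.173), a pairing taken from the replicate numbers in the labels and the data. In EIIa the correlations were 0.0602, -0.0704 and -0.0500, so the numbers were not taken as pairs. In both models replicate 1 was the one heart of each group with Y-linked counts (at most 2 in the others), so same-numbered hearts were alike in sex too. A difference of replicate 1 from the others, which the replicate block removes, cannot be told apart from a difference of sex.

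The regulators and gene lists were chosen with earlier results of these data known. The named genes are all 10 regulators, from each list of pathway genes the 3 with the lowest adjusted p in Myh6 and the 1 with the lowest p in EIIa, and the 3 genes nearest in pattern to each called regulator. Locus positions are from GENCODE on GRCm38.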

Additional observations from a re-analysis of the deposited data

Results flagged for a closer look

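A test of the difference between the models (the change in Myh6-tg minus the change in EIIa-tg, edgeR over 12 hearts) called 14 of the genes named. Over all genes 2.27% were called lower and 1.65% higher. All of the 14 but Ppargc1a had been named for a low adjusted p in Myh6-tg against Myh6-ctl. The test of the difference uses the same hearts, so that choice favours calls among them. Ppargc1a was lower by this measure at -2.28, beside its coregulators Perm1 at -1.86 and Lpin1 at -1.07. The fatty acid oxidation genes Cpt2, Acsl1, Hadha, Eci1 and Acaa2 were at -1.40, -1.26, -1.38, -1.85 and -1.61. Suclg2 of the TCA cycle was at -1.29, the muscle cytochrome oxidase subunits Cox7a1 and Cox8b at -2.24 and -1.93, mt-Nd3 at -1.50 and the mitochondrial exonuclease Mgme1 at -1.28. The AMPK subunit Prkab2 was the 1 gene higher in Myh6-tg by this measure, at 2.45. Age, Cre line, tamoxifen and the tissues that express the repeat differ between the models and cannot be told apart.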

How the results depend on the processing

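Ppargc1a was called in Myh6-tg under all 17 alternatives (adjusted p up to 0.0292) and between the models under all 22 (up to 0.0479). Esrra was called in 13 of 17. In Myh6 the replicate block changed the call of no regulator but Esrrb and Esrrg. Genes called, 2527 in EIIa, were 1 with the replicate block, 1 with limma on log2(FPKM + 1) without a filter, 227 in one fit of 12 hearts, and 0 to 4079 with 1 heart left out. The 2 regulators called in EIIa were 0 with the replicate block, limma and the fit of 12 hearts, and 0 to 3 with a heart left out. In Myh6, 2805 genes became 4228 with limma on log2(FPKM + 1), 5049 in the fit of 12 hearts, and 798 to 4269 with a heart left out. The 2 regulators became 4 with DESeq2 and the replicate block, 5 in the fit of 12 hearts, and 1 to 5 with a heart left out. Between models, 624 genes became 1396 with DESeq2 and 293 to 1727 with a heart left out, and 1 regulator became 2 with DESeq2 and 1 to 4. Between the controls, 5 genes became 429 with DESeq2, 65 without a filter, 11 with a CPM filter, 27 with the replicate block, 18 with the bias-adjusted test, 8 with limma on log2(FPKM + 0.1), 1 with limma without a filter, and 3 to 98; DESeq2 called 1 regulator. The cause was not tested.

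Of genes called lower in lists, the EIIa counts were all 0 with the replicate block, the fit of 12 hearts and limma without a filter. DESeq2 gave 8 fatty acid oxidation, 14 TCA, 32 nuclear respiratory chain, 12 mitochondrially encoded, 7 PPAR target and 2 coregulator genes. In Myh6 limma without a filter gave 7 TCA, 27 nuclear respiratory chain and 1 mitochondrially encoded gene, and the bias-adjusted test 2 mitochondrially encoded genes. Fatty acid oxidation in Myh6 stayed at 11 to 16 of 19.

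With limma on FPKM the EIIa direction turned for Ppargc1a (0.081, 0.090 and 0.081 with pseudocounts of 1, 0.1 and 1 without a filter), Esrra (0.050, 0.051), Ppard (0.0021), Gabpa (0.12, 0.13) and Tfam (0.13, 0.15), and in Myh6 for Ppard (0.24, 0.28). Without the mitochondrially encoded genes Gabpa in Myh6 was -0.0025, and Ppara between models was 0.24 with log2(FPKM + 0.1). With 1 heart left out, values that changed sign spanned -0.26 to 0.026 (Ppargc1a, EIIa), -0.10 to 0.021 (Tfam, EIIa), -0.039 to 0.14 (Gabpa, Myh6), -0.12 to 0.14 (Nrf1), -1.21 to 0.63 (Ppara) and -0.066 to 0.14 (Ppard) between models. Between controls they spanned -0.45 to 0.026 (Esrrg), -0.053 to 0.026 (Gabpa), -0.092 to 0.062 (Nrf1), -0.36 to 1.11 (Ppara), -0.12 to 0.11 (Ppard) and -0.34 to 0.29 (Ppargc1b). A regulator at under 2 CPM, such as Ppara in 3 hearts, is the least precisely measured.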
